A study of Homo sapiens with 12 samples.

Results

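Fatty acid synthesis and desaturation is described here through 10 genes, out of the 57736 genes in the deposited count tables: the regulator SREBF1, the acetyl-CoA producing enzymes ACLY and ACSS2, the synthesis enzymes ACACA and FASN, the elongases ELOVL5 and ELOVL6, and the desaturases SCD, FADS1 and FADS2. They were chosen by gene name and pathway role, and the counts of all 3′ regions of a gene were summed. HepG2 cells, from a human liver carcinoma, and Ls174 cells, from a human colon carcinoma, were incubated for 24 h without extract (control) or with HME, an extract of the red seaweed Hypnea musciformis, at 0.7 mg/ml by the labels. RNA of 3 biological replicates of each group was sequenced from the 3′ end of polyadenylated transcripts, giving 12 libraries. All cells carry the genotype label WT and were grown in DMEM with fetal bovine serum, and whether serum was present during the 24 h is not given in the sources used here. Each tissue is represented by 1 cell line, so lines and not tissues are compared, and the p-values measure the spread between cultures of a line.

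Cells make fatty acids from acetyl-CoA, which ACLY derives from citrate and ACSS2 from acetate. ACACA carboxylates acetyl-CoA to malonyl-CoA, FASN builds palmitate from both, ELOVL6 lengthens palmitate, and SCD places the first double bond to give the oleate and palmitoleate used for membranes and triglycerides. FADS2 and FADS1 are the delta-6 and delta-5 desaturases that, with ELOVL5, turn dietary linoleate and linolenate into long polyunsaturated fatty acids. SREBF1 encodes the membrane-bound precursor of SREBP-1, a transcription factor that activates many of these genes and is itself under feedback from sterols and polyunsaturated fatty acids. Liver is a main site of this pathway in the body, and many carcinoma lines use it to build membranes.

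The libraries held between 1790841 and 3656662 counts, and the 100 most counted genes took 26.7% to 35.9% of a library. Levels are given as CPM, the count of a gene relative to the library size after TMM scaling of all 12 libraries together. In this 3′ protocol a count does not grow with transcript length, so that levels of different genes can be set side by side, although reading of 3′ ends can still differ between genes. HepG2 control 2 and Ls174 control 1 stood apart from their replicates, with mean distances within the group of 43.7 (others 33.8 and 34.3) and 65.3 (others 40.8 and 42.2) over the 500 most variable genes. HepG2 HME 2 was also further from its replicates, at 38.3 (others 31.1 and 30.2). All 13 hepatocyte markers were counted in HepG2 cells, with summed levels of 32850 to 35811 CPM in control and 23584 to 25934 CPM in HME libraries, against 0.310 to 163 CPM in Ls174 libraries. The 12 colon epithelium markers summed to 579 to 672 CPM in Ls174 and 71.6 to 211 CPM in HepG2 libraries. Most of the HepG2 sum was VIL1 (52.9 to 188 CPM), whose mean was higher in HepG2 control (136 CPM) than in Ls174 control cells (62.8 CPM). In Ls174 cells CEACAM5, CEACAM6 and MUC2 were at no more than 6.05 CPM, and KRT20 was at 0 in all Ls174 control libraries. COL1A1 and COL1A2, collagen genes of mesenchymal cells, stood at 551 and 408 CPM in HepG2 HME 2 and at no more than 6.06 CPM in the other 11 libraries. The 8 blood cell markers summed to 95.9 to 556 CPM in HepG2 libraries, nearly all of it LYZ (90.9 CPM in HepG2 control 2 and 395 to 552 CPM in the others), and to no more than 4.61 CPM in Ls174 libraries, while the defining markers PTPRC and CD3E were at 0 in every library. The part of these markers in the results was not tested.

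For 4 members the reads came almost wholly from 1 exonic region: it held 100% of the counts of ACLY and SCD, 99.6% of FASN and 98.6% of SREBF1. It held 97.7% of the counts of FADS1, 96.5% of ELOVL6, 96.3% of ELOVL5 and 85.4% of FADS2. On GRCh37 these exonic regions lie at chr10:102120691-102124788 for SCD, chr17:80036017-80037484 for FASN and chr17:17715190-17716613 for SREBF1, each overlapping an annotated UTR, and for SREBF1 another counted region (chr17:17714326-17715098, 1.06% of its counts) lies 3′ of the main one. The main region of FADS1 is chr11:61566902-61569882 on the minus strand, and that of its neighbour FADS2 is chr11:61633162-61635023 on the plus strand. The region of SCD contains a counted region of the transcript AL139819.1, so that reads there may have been counted under both names.

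ACACA and ACSS2 were less simple. The terminal region of ACACA (chr17:35441726-35444374) held 76.5% of its counts, and an exonic region far upstream (chr17:35685387-35685900) held 17.4%. That upstream region took 5.41% of the ACACA counts in HepG2 control and 23.3% in Ls174 control cells, where it had 0, 42 and 46 counts in replicates 1, 2 and 3. The terminal region of ACSS2 (chr20:33514680-33515966) held 61.6% of its counts. A pair of exonic regions inside the gene, chr20:33470673-33470792 and chr20:33470794-33470996, had equal counts in 8 of 12 libraries and differed by at most 2 counts in the others, so that the same reads may have been counted in both. The values of ACACA and ACSS2 are therefore given below also for the terminal region alone.

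Promoter sequences were looked up because SREBP-1 acts through sterol regulatory elements together with NF-Y, which binds CCAAT, and Sp1, which binds GC boxes. RefSeq starts on GRCh38.p14 were in the table for 9 of the 10 members, FASN not being among them. Within 250 bases before the start, on both strands, the sterol regulatory element letters TCACNCCAC were in 0 of 9 members, in 1.09% of 27305 genes and in 0 of 16 genes of the cholesterol list. CCAAT was in 5 of 9 members (ACLY, ACACA, SCD, ELOVL5 and ACSS2) and in 37% of genes, and in 14 of 16 genes of the cholesterol list. The GC box GGGCGG was in 8 of 9 members and in 46.2% of genes, the E-box CACGTG in ELOVL5 and in 7.73% of genes, and the shorter letters TCACNCC, which are contained in TCACNCCAC, in FADS1 and ACSS2 and in 15.5% of genes. A match of letters is a description and not a bound site. As the full letters were absent from the cholesterol list too, their absence does not show that the members lack sterol elements. The upstream windows of SCD, the member with the highest level, of ELOVL5, the member whose values lay above control in HepG2 and mostly below in Ls174 cells, and of ACSS2 are shown 5′ to 3′ on the gene's strand, with CCAAT (or ATTGG on the other strand), CACGTG and TCACNCC in capitals. They lie at chr10:100346983-100347232 on the plus strand, chr6:53348951-53349200 on the minus strand and chr20:34876362-34876611 on the plus strand.
SCD: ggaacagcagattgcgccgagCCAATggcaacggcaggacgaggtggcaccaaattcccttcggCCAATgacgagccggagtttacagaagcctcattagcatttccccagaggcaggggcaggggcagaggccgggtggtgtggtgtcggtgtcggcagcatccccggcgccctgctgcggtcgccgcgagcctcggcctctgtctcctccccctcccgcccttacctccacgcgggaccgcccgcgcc
ELOVL5: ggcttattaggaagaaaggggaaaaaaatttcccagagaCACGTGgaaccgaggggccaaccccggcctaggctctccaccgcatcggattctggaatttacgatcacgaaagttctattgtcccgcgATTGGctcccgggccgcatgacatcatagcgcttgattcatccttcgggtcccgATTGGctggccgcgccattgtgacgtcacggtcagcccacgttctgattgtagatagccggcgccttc
ACSS2: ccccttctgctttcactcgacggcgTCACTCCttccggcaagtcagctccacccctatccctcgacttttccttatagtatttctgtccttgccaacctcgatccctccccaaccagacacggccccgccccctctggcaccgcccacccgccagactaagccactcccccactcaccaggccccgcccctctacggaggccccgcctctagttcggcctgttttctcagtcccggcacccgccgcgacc
In these windows SCD carries CCAAT at 229 and 186 bases before the start, ELOVL5 carries it at 122 and 68 bases with the E-box at 211 bases, and ACSS2 carries the shorter sterol element letters at 225 bases. The CCAAT of ACSS2 lies before another of its starts. The windows thus differ in which letters they hold, and a link between these letters and the values with HME was not tested.

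The first comparison asked how 24 h with HME altered these genes in HepG2 cells. With edgeR's quasi-likelihood test and Benjamini-Hochberg adjustment, 0 of 10 members passed an adjusted p of 0.05, where 3.31% of 11343 tested genes did. At a looser rule, p below 0.05 before adjustment together with an absolute log2 fold change above 0.58, 2 members passed, FASN and FADS2, both lower with HME, where 22.2% of tested genes passed and 10.9% in the lower direction. DESeq2 called 1 member, FASN, at an adjusted p of 0.0202, where 3.75% of genes passed. Values were below control in 7 of 10 members (52.3% of genes), with a median log2 fold change of -0.58 against -0.04 over all tested genes, and libraries did not overlap in 6 members that were lower (15.3% of genes) and in 1 that was higher (15.5% of genes).

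In Ls174 cells 1 of 10 members passed, FADS2, which fell by 58.9% (log2 fold change -1.28 ± 0.19 SE, edgeR adjusted p = 0.0331), where 1.18% of 11319 tested genes passed and 0.866% in the lower direction. At the looser rule 5 members passed, all lower: SREBF1, FASN, SCD, ELOVL6 and FADS2, where 12% of tested genes passed and 7.85% in the lower direction. Values were below control in 9 of 10 members (50.1% of genes), with a median log2 fold change of -0.59 against 0.00 over all tested genes, and 6 members had every HME library below every control library (12.2% of genes). The call was kept without Ls174 control 1 (adjusted p = 0.000234) and lost without any other library, with adjusted p of 0.0907 to 0.274, in fits where 0 to 10 genes of the whole table passed. Without Ls174 control 1, 5 members passed, SREBF1, SCD, ELOVL5, ELOVL6 and FADS2, but 8.39% of 11673 tested genes then passed too. DESeq2 called SREBF1, SCD and FADS2, where 1.67% of genes passed.

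**Figure D1:**
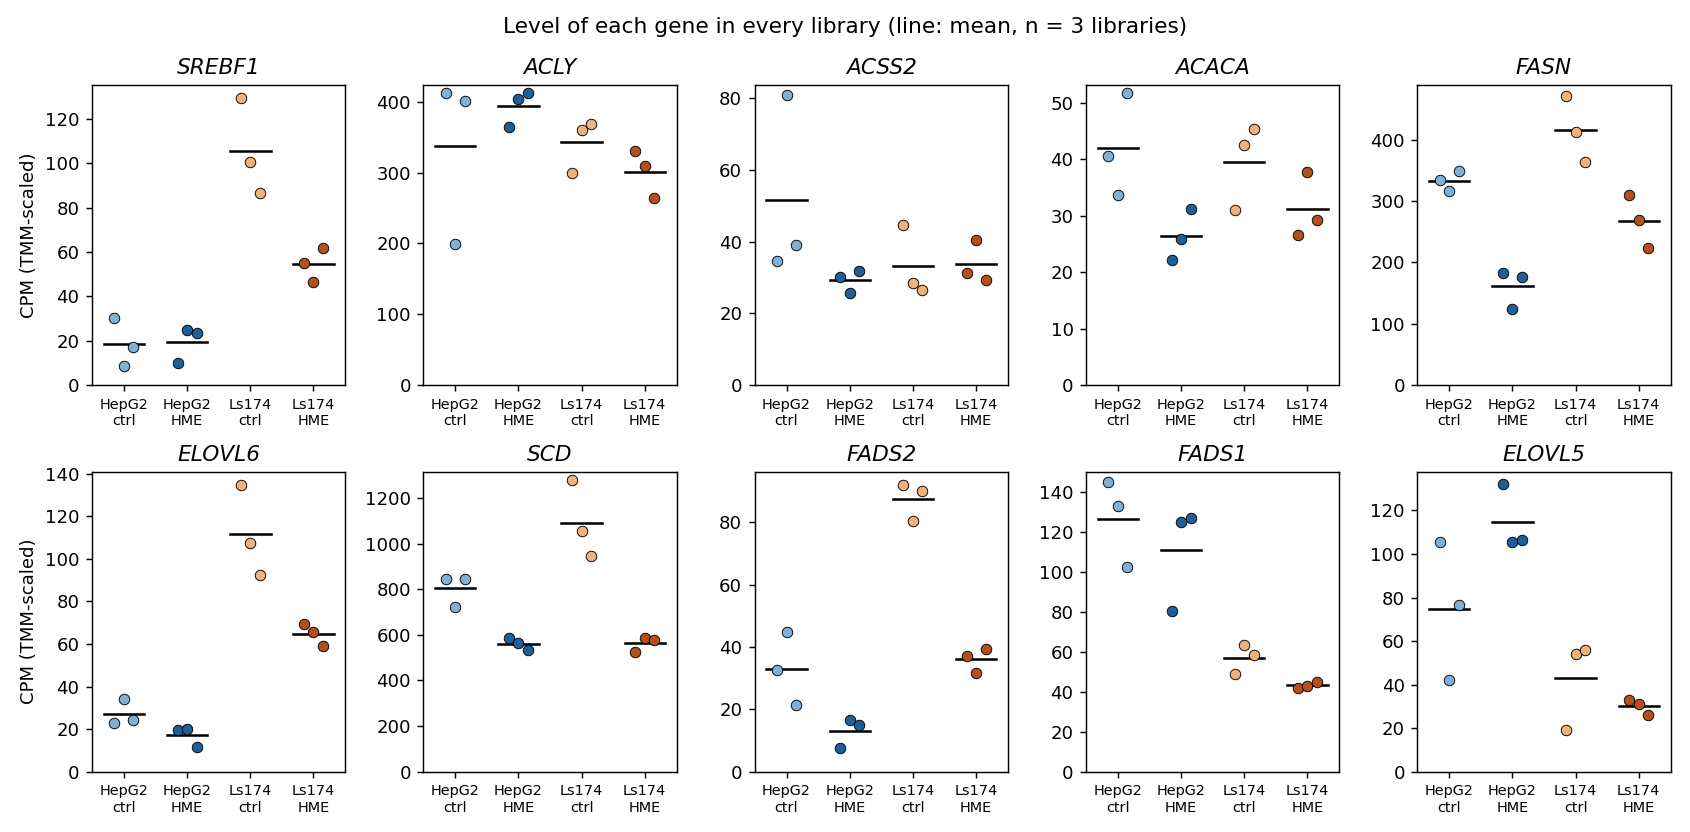
CPM of the 10 genes in each of the 12 libraries, on linear axes that start at 0, with 1 point per library and a black line at the mean of 3 libraries. SCD, FASN, ELOVL6 and FADS2 have all HME points below all control points in both lines, while ELOVL5 points are higher with HME in HepG2 (106 to 132 CPM against 42.4 to 105 CPM) and those of Ls174 control cells spread from 19.2 to 56.1 CPM.

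SREBF1, the regulator, was at low levels in HepG2 cells. It stood at 30.4, 8.72 and 17.0 CPM in HepG2 control and 9.89, 24.7 and 23.4 CPM in HepG2 HME libraries. These groups overlapped, and the log2 fold change of 0.04 ± 0.49 (adjusted p = 0.97) leaves a 95% confidence interval from -1.06 to 1.15. In Ls174 cells it stood at 129, 101 and 86.8 CPM in control and at 55.0, 46.6 and 61.8 CPM in HME libraries. Every HME library was below every control library there, and the log2 fold change was -0.96 ± 0.23 (adjusted p = 0.105 by edgeR, 0.00897 without Ls174 control 1).

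ACLY, which cuts citrate into acetyl-CoA in the cytosol, showed no difference beyond the spread. Its levels were 413, 199 and 401 CPM in HepG2 control, 365, 403 and 413 CPM in HepG2 HME, 299, 361 and 369 CPM in Ls174 control and 331, 309 and 265 CPM in Ls174 HME libraries. Control and HME libraries overlapped in each line, the low value being that of HepG2 control 2, and the log2 fold changes were 0.25 ± 0.34 in HepG2 and -0.19 ± 0.19 in Ls174 cells.

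ACSS2, which activates acetate, was at 34.7, 81.0 and 39.2 CPM in HepG2 control and at 30.1, 25.8 and 31.8 CPM in HepG2 HME libraries. The high control value was again HepG2 control 2, and the log2 fold change of -0.82 ± 0.40 (adjusted p = 0.26) was -0.27 without that library. In Ls174 cells it was at 44.8, 28.6 and 26.6 CPM in control and at 31.3, 40.5 and 29.2 CPM in HME libraries, overlapping groups with a log2 fold change of 0.02 ± 0.28. With the terminal region alone the log2 fold changes were -1.29 in HepG2 (adjusted p = 0.132) and -0.40 in Ls174 cells (adjusted p = 0.55). That region gave 23.4, 57.3 and 31.1 CPM in HepG2 control and 19.0, 12.7 and 13.8 CPM in HepG2 HME libraries, which did not overlap. The share of ACSS2 counts in the terminal region was 71.9% in HepG2 control and 53.0% in HepG2 HME cells, and 67.6% and 49.1% in Ls174 control and HME cells, so that it was lower with HME in both lines. The share of the main region was also lower with HME in both lines for ACACA, FADS2, FADS1, ELOVL5 and FASN. For ACACA it was 87.7% in HepG2 control and 76.8% in HepG2 HME cells, and 74.3% and 65.7% in Ls174 control and HME cells. The share was higher with HME in both lines for SREBF1, and for ELOVL6 it was higher in HepG2 and lower in Ls174 cells. These shares were chosen after their values were seen and were not tested.

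ACACA, the acetyl-CoA carboxylase that commits carbon to synthesis, was at 40.6, 33.6 and 51.7 CPM in HepG2 control and at 22.2, 25.8 and 31.2 CPM in HepG2 HME libraries. The groups did not overlap, and the log2 fold change was -0.66 ± 0.31 (adjusted p = 0.246). Its Ls174 levels were 31.0, 42.5 and 45.3 CPM in control and at 26.6, 37.7 and 29.2 CPM in HME libraries, which overlapped, with a log2 fold change of -0.36 ± 0.24.

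FASN, the fatty acid synthase, was at 334, 316 and 349 CPM in HepG2 control libraries, against 182, 124 and 176 CPM with HME. Every HME library was below every control library and the means were 333 ± 16.5 and 161 ± 32.05 CPM (SD, n = 3). The log2 fold change was -1.04 ± 0.30 (adjusted p = 0.092 by edgeR, 0.0364 without HepG2 control 2, 0.329 without HepG2 HME 2). In Ls174 cells FASN was at 472, 413 and 364 CPM in control and at 310, 268 and 223 CPM in HME libraries. These did not overlap either, with a log2 fold change of -0.65 ± 0.21 (adjusted p = 0.237).

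ELOVL6, which lengthens palmitate to stearate, was at 23.1, 34.3 and 24.2 CPM in HepG2 control and at 19.8, 20.2 and 11.4 CPM in HepG2 HME libraries. The groups did not overlap, with a log2 fold change of -0.65 ± 0.37 (adjusted p = 0.325). In Ls174 cells it was at 135, 107 and 92.2 CPM in control and at 69.2, 65.4 and 59.1 CPM in HME libraries, again without overlap, and the log2 fold change was -0.79 ± 0.21 (adjusted p = 0.148, or 0.0267 without Ls174 control 1).

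SCD, the stearoyl-CoA desaturase, had the highest level of the 10 genes in every library, 36.0% to 50.1% of their summed CPM. It was at 846, 722 and 846 CPM in HepG2 control and at 586, 565 and 531 CPM in HepG2 HME libraries, with a log2 fold change of -0.51 ± 0.29 (adjusted p = 0.318). Its Ls174 levels were 1277, 1053 and 943 CPM in control and at 526, 586 and 578 CPM in HME libraries, with a log2 fold change of -0.96 ± 0.21 (adjusted p = 0.0802, or 0.00456 without Ls174 control 1). HME libraries were below control libraries in both lines, and the HME means of 561 and 563 CPM were closer to each other than the control means of 805 and 1091 CPM.

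FADS2, the delta-6 desaturase and the only member that edgeR called in a treatment comparison, was at 92.0, 80.4 and 89.9 CPM in Ls174 control and at 37.2, 31.6 and 39.4 CPM in Ls174 HME libraries. Control libraries all stood above HME libraries by a wide gap. In HepG2 cells it was at 32.5, 44.9 and 21.4 CPM in control and at 7.52, 16.6 and 15.01 CPM in HME libraries, also without overlap. The log2 fold change in HepG2 cells was -1.33 ± 0.43 (adjusted p = 0.12), the lowest of the 10 members, with a 95% confidence interval from -2.30 to -0.36, against -1.73 to -0.84 in Ls174 cells. The terminal region alone gave log2 fold changes of -1.36 in both lines, with an adjusted p of 0.0312 in Ls174 and 0.152 in HepG2 cells.

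FADS1, the delta-5 desaturase that lies head to head with FADS2, was at 145, 133 and 102 CPM in HepG2 control and at 80.3, 125 and 127 CPM in HepG2 HME libraries. These overlapped, with a log2 fold change of -0.19 ± 0.32. In Ls174 cells it was at 48.7, 63.3 and 58.6 CPM in control and at 41.9, 43.0 and 44.7 CPM in HME libraries, which did not overlap, with a log2 fold change of -0.40 ± 0.19 (adjusted p = 0.4). The ratio of FADS2 to FADS1 CPM within a library was 0.210 to 0.338 in HepG2 control and 0.0936 to 0.133 in HepG2 HME libraries, and 1.27 to 1.89 in Ls174 control and 0.736 to 0.887 in Ls174 HME libraries. The ratio was thus below that of control in every HME library of both lines, a description chosen after its values were seen.

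ELOVL5, which lengthens polyunsaturated fatty acids, had the highest log2 fold change of the 10 members in HepG2 cells, where ACLY and SREBF1 were also above 0, and did not pass the test. It was at 105, 42.4 and 76.8 CPM in HepG2 control and at 132, 106 and 106 CPM in HepG2 HME libraries, the groups being separated by 105.4 and 105.7 CPM. The log2 fold change was 0.64 ± 0.36 (adjusted p = 0.315), or 0.40 without HepG2 control 2. Its Ls174 levels were 19.2, 54.0 and 56.1 CPM in control and at 33.2, 30.9 and 26.3 CPM in HME libraries. The groups overlapped only through Ls174 control 1, and the log2 fold change was -0.53 ± 0.37 (adjusted p = 0.552), or -0.87 without that library (adjusted p = 0.00612).

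**Figure D2:**
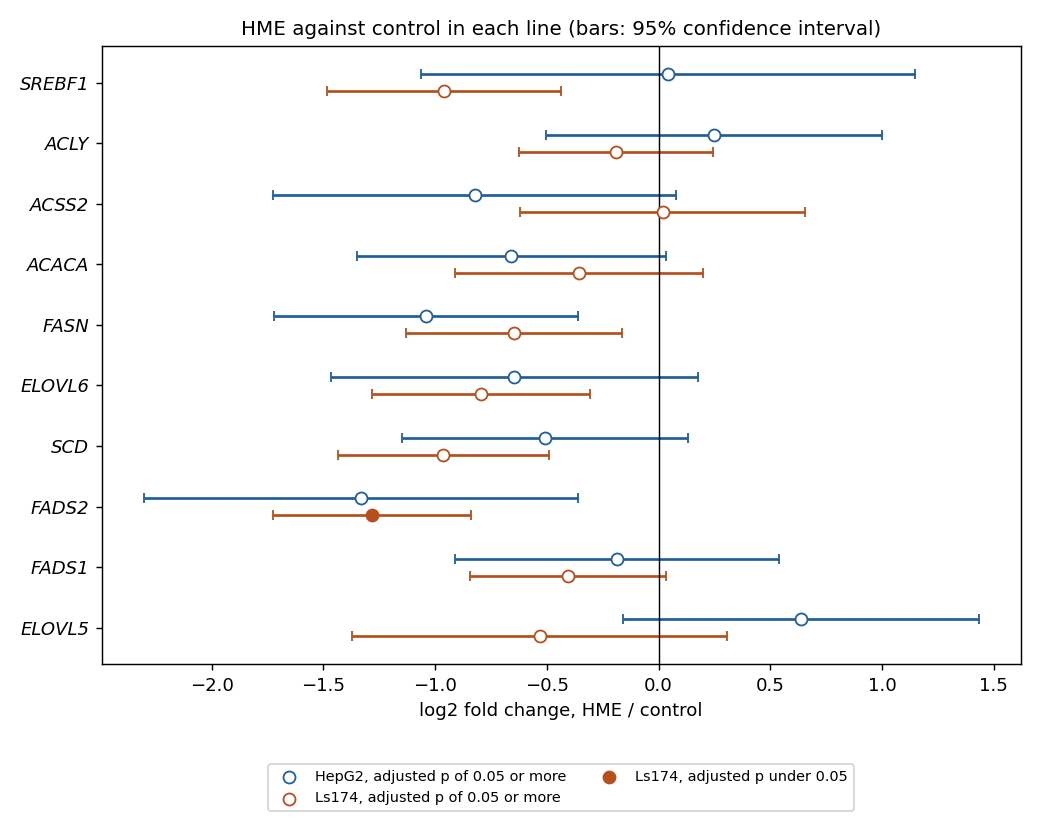
Log2 fold change of HME against control in HepG2 (blue) and Ls174 cells (orange) for the 10 genes, with 95% confidence intervals; filled points passed an adjusted p of 0.05. Only FADS2 in Ls174 cells is filled (-1.28), FASN and FADS2 in HepG2 cells have intervals that lie below 0, and ELOVL5 is the gene furthest above 0 (0.64 in HepG2 cells).

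Summed over the 10 genes, the level was 2005, 1614 and 1928 CPM in HepG2 control and 1434, 1436 and 1467 CPM in HepG2 HME libraries. In Ls174 cells it was 2547, 2304 and 2132 CPM in control and 1461, 1459 and 1355 CPM in HME libraries. HME libraries of both lines lay in the narrow range of 1355 to 1467 CPM, below every control library, and SCD, FASN and ACLY made up most of each sum. In HepG2 cells the summed hepatocyte markers were also lower in every HME library, with a median log2 fold change of -0.49 over the 13 markers of which 0 passed an adjusted p of 0.05, and the part of this in the members' values was not tested. Fewer cells expressing a gene and less RNA per cell cannot be told apart in these bulk samples.

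The next comparison asked whether the effect of HME differed between the lines, by the interaction of line and treatment over all 12 libraries. It passed in 0 of 10 members by edgeR and by DESeq2, and at an unadjusted p of 0.05 in 0 by edgeR, where 0.644% of 13040 tested genes passed the adjusted and 13.2% the unadjusted threshold. By DESeq2, 1.35% of 27326 genes passed the adjusted threshold. At the looser rule DESeq2 had 1 member, ELOVL5, where 1963 of the 27326 genes passed. The difference, effect in Ls174 minus effect in HepG2 on the log2 scale, was furthest from 0 for ELOVL5 at -1.14 ± 0.55 (adjusted p = 0.391), with a 95% confidence interval from -2.30 to 0.03. In a fit that was not planned, without HepG2 control 2 and Ls174 control 1 together, ELOVL5 passed, at -1.18 (adjusted p = 0.0477). In that fit 3.25% of 13327 tested genes passed. The libraries left out held the lowest ELOVL5 control values of their lines, 42.4 and 19.2 CPM. SREBF1 followed at -0.96 ± 0.58 and ACSS2 at 0.83 ± 0.49, which were -0.44 and 0.65 without these libraries. For FADS2 the difference was 0.05 ± 0.45, with an interval from -0.91 to 1.02, which is wide against the effects themselves.

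The untreated lines were compared to set the starting levels. Here 4 of 10 members passed, where 23.5% of 11907 genes did: SREBF1, ELOVL6 and FADS2 were higher in Ls174 than in HepG2 control cells, and FADS1 was lower (9.33% of genes passed as higher and 14.2% as lower). Libraries did not overlap in 5 members that were higher in Ls174 cells (20.3% of genes) and in 1 that was lower (22.3% of genes). SREBF1 was 5.45-fold higher (log2 2.45 ± 0.46, adjusted p = 0.00396), ELOVL6 3.99-fold (2.00 ± 0.35, adjusted p = 0.00279) and FADS2 2.58-fold (1.37 ± 0.37, adjusted p = 0.0255). FADS1 stood at 0.439 of its HepG2 level (log2 -1.19 ± 0.32, adjusted p = 0.0242). The adjacent desaturase genes thus differed in opposite directions between the lines. SREBF1 and ELOVL6 passed in every fit that left out 1 library, whereas FADS2 or FADS1, or both, missed the threshold in 5 of 6 such fits. ACLY (log2 0.00 ± 0.36), ACACA (-0.11 ± 0.33), FASN (0.29 ± 0.31) and SCD (0.41 ± 0.33) had intervals that include 0, those of ACLY reaching from -0.82 to 0.82. ELOVL5 at -0.82 ± 0.48 (adjusted p = 0.27) and ACSS2 at -0.68 ± 0.44 (adjusted p = 0.316) had lower means in Ls174 cells without passing.

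**Figure D3:**
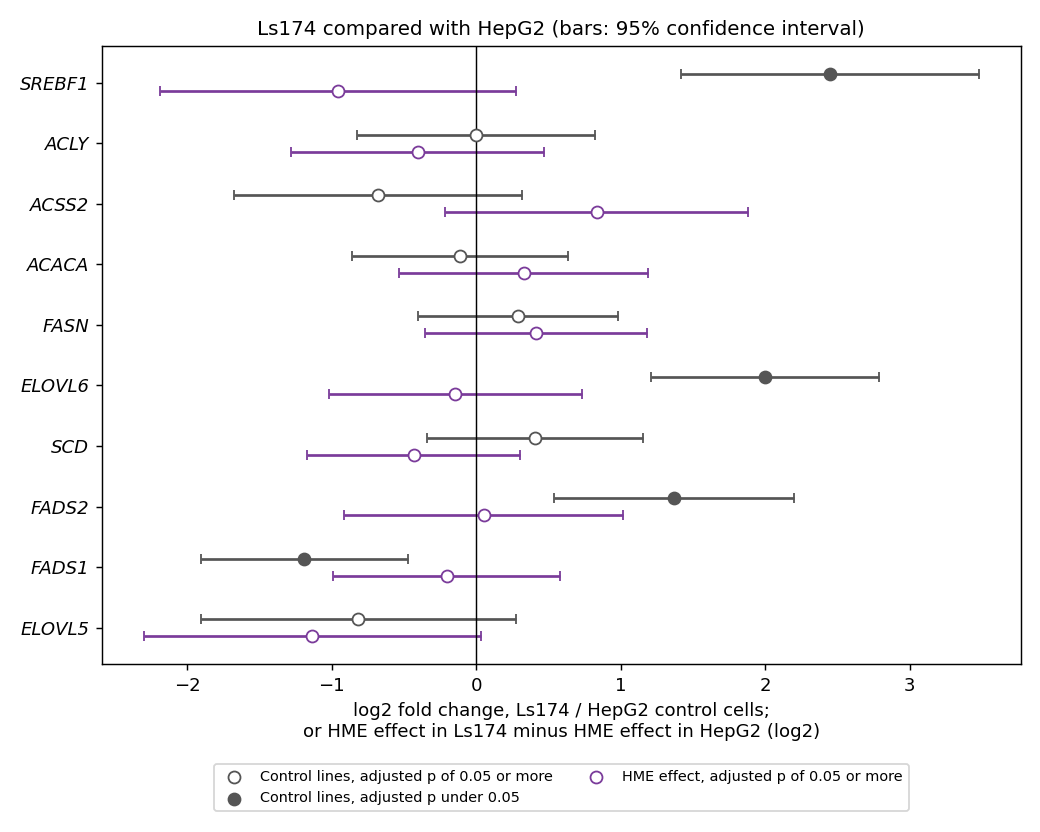
For the 10 genes, the log2 fold change of Ls174 against HepG2 control cells (grey) and the effect of HME in Ls174 minus that in HepG2 cells (purple), with 95% confidence intervals; filled points passed an adjusted p of 0.05. SREBF1 (2.45), ELOVL6 (2.00), FADS2 (1.37) and FADS1 (-1.19) are filled in the comparison of lines, and all 10 purple points are open.

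By mean CPM, the order in HepG2 control cells was SCD (805), ACLY (338), FASN (333), FADS1 (127), ELOVL5 (74.8), ACSS2 (51.6), ACACA (42.0), FADS2 (32.9), ELOVL6 (27.2) and SREBF1 (18.7). SCD stood apart, ACLY and FASN overlapped in their library values, and so did each neighbouring pair from FADS1 down to SREBF1. In Ls174 control cells the order was SCD (1091), FASN (416), ACLY (343), ELOVL6 (111), SREBF1 (106), FADS2 (87.4), FADS1 (56.9), ELOVL5 (43.1), ACACA (39.6) and ACSS2 (33.3). There, neighbours did not overlap between SCD and FASN, ACLY and ELOVL6, and FADS2 and FADS1, and the other neighbouring pairs did. In both lines the 3 genes with the highest level were SCD, FASN and ACLY.

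Other genes of lipid synthesis were read from lists by role. Among 12 tested regulators of SREBP and lipogenesis in HepG2 cells, 1 fell, MLXIPL (the glucose-responsive factor ChREBP), and 0 rose. MLXIPL went from 107, 252 and 128 CPM to 36.0, 43.5 and 44.4 CPM (log2 -1.99 ± 0.41, adjusted p = 0.0324), all HME libraries being below all control libraries, and missed the threshold without HepG2 control 3 or any HME library (adjusted p up to 0.153). In Ls174 cells 0 of 14 regulators passed, and MLXIPL was at 45.2, 23.9 and 31.5 CPM in control and 25.1, 14.6 and 20.4 CPM in HME libraries (adjusted p = 0.368).

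Of the genes that supply acetyl-CoA, malonyl-CoA and NADPH, 0 of 8 tested passed in HepG2 cells and 1 of 7 in Ls174 cells. The medians of this list were -0.70 in HepG2 and 0.25 in Ls174 cells.

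None of the elongation cycle genes beside the 2 member elongases passed, 0 of 8 tested in HepG2 and 0 of 6 in Ls174 cells, where the medians were -0.22 and -0.91. HACD2, a dehydratase of that cycle, was at 42.8, 130 and 52.1 CPM in HepG2 control and 36.8, 23.7 and 29.4 CPM in HME libraries. In Ls174 cells it was at 103, 47.8 and 37.4 CPM against 12.8, 23.8 and 17.4 CPM (log2 -1.80 ± 0.42, adjusted p = 0.104). HSD17B12, the ketoacyl reductase, had log2 fold changes of -0.74 and -0.88 in HepG2 and Ls174 cells (adjusted p = 0.188 and 0.237), HACD3 of -0.08 and -1.04 (0.918 and 0.066) and ELOVL7 of 0.06 and -0.94 (0.957 and 0.393). HACD2 and HSD17B12 thus had HME libraries wholly below control libraries in both lines, without passing the test.

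Other desaturases and the cytochrome b5 system that feeds electrons to desaturases gave 0 of 5 tested in either line. CYB5B had log2 fold changes of -0.995 in HepG2 and -0.47 in Ls174 cells (adjusted p = 0.176 and 0.523), CYB5R1 of -0.28 and -0.71 (0.705 and 0.163), CYB5A of 0.66 and 0.18 (0.416 and 0.748) and CYB5R3 of 0.12 and -0.03 (0.856 and 0.961). The mitochondrial fatty acid synthesis genes, a separate pathway that makes lipoate precursors, gave 0 of 6 in either line. Among them MCAT stood at -0.71 and 0.40 (adjusted p = 0.273 and 0.597), CBR4 at -0.38 and 0.44 (0.563 and 0.418), NDUFAB1 at 0.17 and 0.37 (0.813 and 0.442) and HSD17B8 at -1.14 and -0.09 (0.359 and 0.953). The median of these genes was -0.35 in HepG2 and 0.22 in Ls174 cells, unlike the members, whose medians were below 0 in both.

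Among acyl-CoA synthetases and uptake genes, 0 of 9 tested passed in HepG2 and 1 of 10 in Ls174 cells. ACSL3, which activates fatty acids at the endoplasmic reticulum and lipid droplets, fell in Ls174 cells from 130, 131 and 136 CPM to 58.7, 48.4 and 56.8 CPM (log2 -1.28 ± 0.18, adjusted p = 0.0302). In HepG2 cells it was at 180, 107 and 143 CPM in control and at 240, 318 and 291 CPM in HME libraries (log2 1.00 ± 0.31, adjusted p = 0.11), and its response differed between the lines in the interaction test (-2.25 ± 0.36, adjusted p = 0.0114).

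Of 11 glycerolipid genes tested in HepG2 cells, 2 fell and 1 rose. DGAT2 and DGAT1, which add the last acyl chain of triglycerides, fell, DGAT2 from 47.9, 41.1 and 50.9 CPM to 16.6, 15.6 and 16.8 CPM (log2 -1.50 ± 0.29, adjusted p = 0.0247). That call was kept without HepG2 control 2 and lost without any other library (adjusted p up to 0.138). DGAT1 went from 154, 298 and 74.4 CPM to 32.4, 42.4 and 41.4 CPM (log2 -2.20 ± 0.51, adjusted p = 0.0493, a call lost without HepG2 control 1 or any HME library, at 0.0694 to 0.189, and at a log2 fold change of -1.50 without HepG2 control 2). AGPAT9, now named GPAT3, which starts glycerolipid assembly, rose from 5.38, 3.74 and 4.04 CPM to 47.5, 79.2 and 79.3 CPM (log2 3.94 ± 0.38, adjusted p = 0.0015). In Ls174 cells 0 of 10 passed. CIDEC, a lipid droplet protein on the adipocyte marker list that liver cells can also express, rose in HepG2 cells from 8.60, 8.72 and 13.7 CPM to 75.2, 72.8 and 88.3 CPM (log2 2.94, adjusted p = 0.00229). LEP, FABP4 and LPL of that list were at 0 in all HepG2 libraries, and ADIPOQ and PLIN1 were at no more than 1.21 CPM. PLIN4 had HepG2 means of 0.970 CPM in control and 1.88 CPM in HME libraries.

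**Figure D4:**
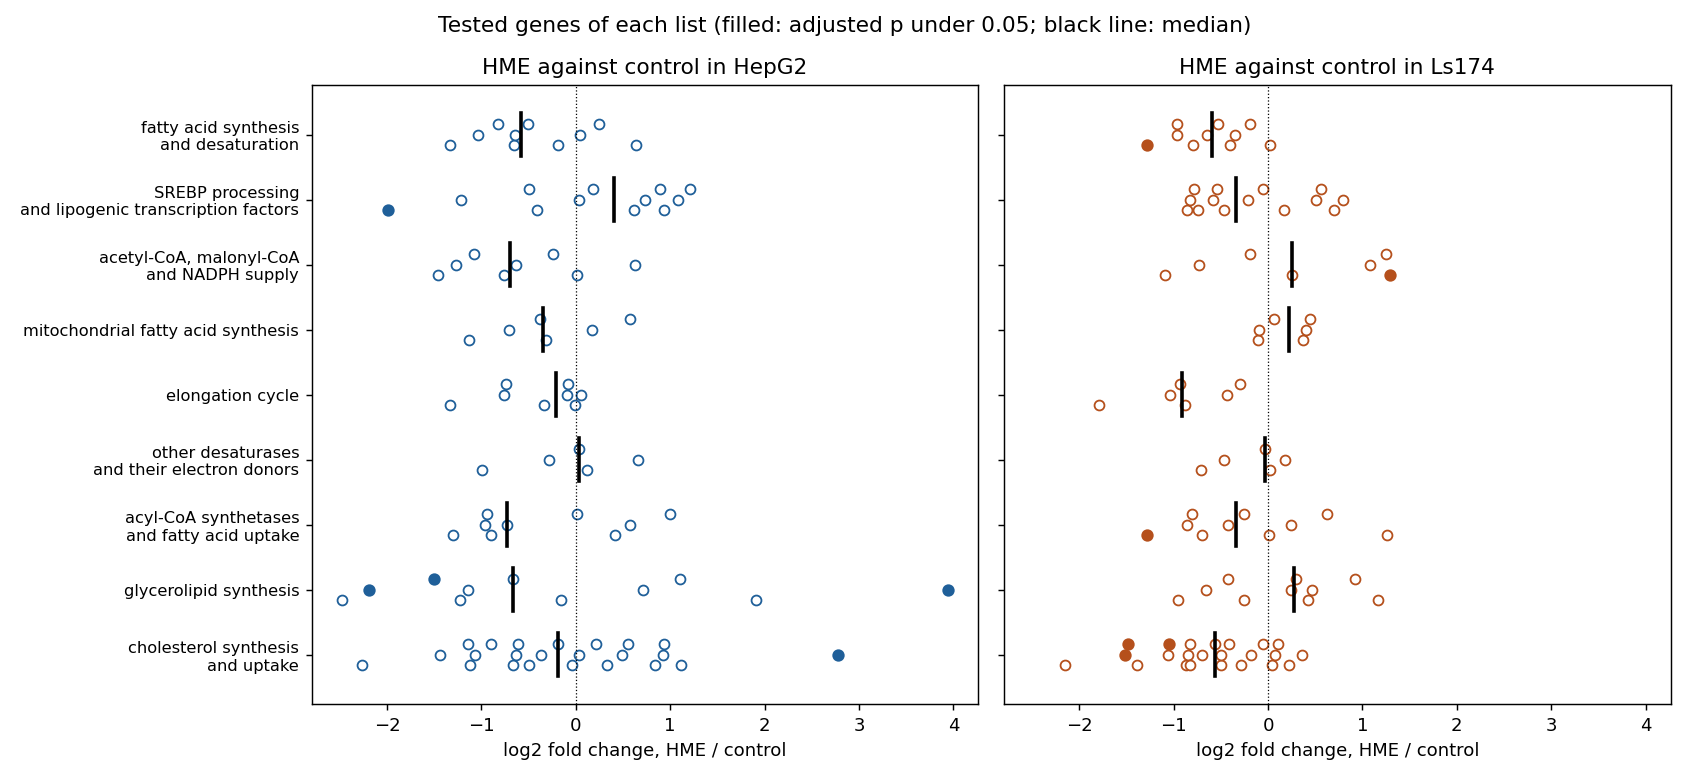
Log2 fold change of HME against control for the tested genes of each lipid list in HepG2 (left) and Ls174 cells (right), with filled points for an adjusted p under 0.05 and a black line at the list's median. The 10 genes of synthesis and desaturation have medians of -0.58 and -0.59, and the filled glycerolipid points in HepG2 cells are DGAT1 (-2.20), DGAT2 (-1.50) and AGPAT9 (3.94).

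Cholesterol synthesis and uptake, the branch mainly driven by the related factor SREBP-2, was counted over 23 genes. In HepG2 cells 0 fell and 1 rose, with a median of -0.19, and at the looser rule 6 were lower and 3 higher. Over all 11343 tested genes that rule gave 1235 lower and 1282 higher. In Ls174 cells 3 fell and 0 rose, with a median of -0.57, and at the looser rule 11 were lower and 0 higher, against 888 lower and 465 higher of all 11319 tested genes. CYP51A1, the lanosterol demethylase, was among those that fell in Ls174 cells, from 357, 426 and 376 CPM to 177, 189 and 196 CPM (log2 -1.05 ± 0.18, adjusted p = 0.0392). All HME libraries were below all control libraries there. In HepG2 cells CYP51A1 had a log2 fold change of 0.49 ± 0.30 (adjusted p = 0.368), of opposite sign. The calls of CYP51A1 and ACSL3 in Ls174 cells were kept without Ls174 control 1 and lost without any other library (adjusted p up to 0.286).

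**Figure D5:**
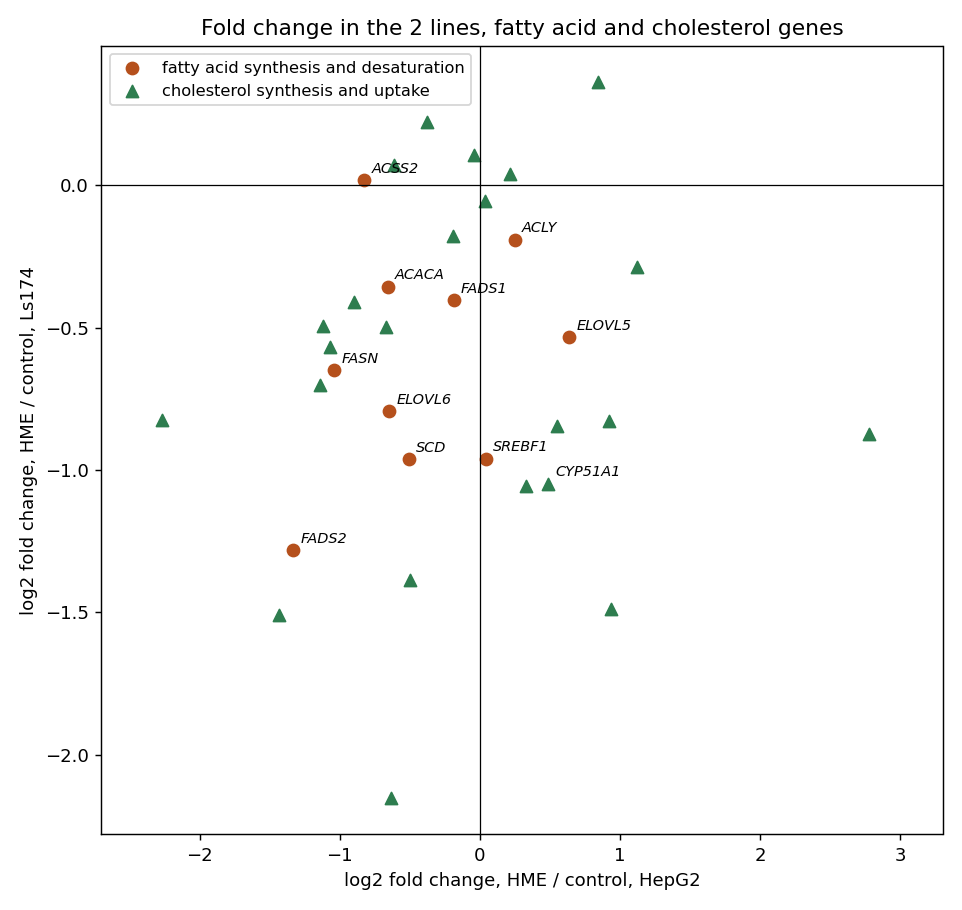
Log2 fold change of HME against control in HepG2 (horizontal) and Ls174 cells (vertical) for the 10 fatty acid genes (circles) and the genes of cholesterol synthesis and uptake (triangles), with the 10 genes and CYP51A1 named. FADS2 (-1.33 and -1.28) lies furthest to the lower left among the circles, and CYP51A1 (0.49 and -1.05) lies to the right of 0 and below it.

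INSIG1, whose protein holds the SREBP precursors in the endoplasmic reticulum, was named after its values were seen. It had 0 counts in the 3 HepG2 control libraries and 2 counts in all 6 HepG2 libraries together, against 282 to 752 counts in each Ls174 library. Against a floor of 3 counts per library, its counted level in Ls174 control cells was at least 74.2-fold higher, a bound that covers counting error only. Reads outside the counted 3′ regions were not examined. Its relative INSIG2 was counted in both lines, at 28.5, 13.1 and 30.3 CPM in HepG2 control and 9.84, 12.1 and 14.3 CPM in Ls174 control libraries.

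Genes whose profile was most like the mean of the 10 members were ranked by Pearson's r of log2 CPM, centred within each line, over the 12 libraries and 9871 genes. The highest were ZCCHC14 and NDST1 (0.95 each), CALR (0.94), and LRIG1 and HS2ST1 (0.93 each), a description without a test in which all points share the libraries and the treatment. Each of these had lower means with HME in both lines, as in CALR, a chaperone of the endoplasmic reticulum, with means of 314 and 202 CPM in HepG2 and 267 and 124 CPM in Ls174 cells. Among the members, r with the mean of the other 9 was highest for SCD (0.88), FADS2 (0.78) and FASN (0.72) and lowest for ELOVL5 (-0.18), with ACLY and ACSS2 at 0.04 each.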

How the data were processed

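The authors aligned the 3′ reads to hg19 (GRCh37) with HISAT2 and analysed them with metaseqR2, and the deposited tables hold whole-number counts of reads per 3′ region, without normalization. HISAT2, Bowtie2 and Trimmomatic are named in the submitters' processing notes, with no versions. How strand and multiple alignments were treated is not given in the sources used here. Region counts were added up per gene. Tests used edgeR 4.0.16 in R 4.3.3 (TMM, filterByExpr by group, quasi-likelihood test, two-sided), adjusted by Benjamini-Hochberg over all tested genes; each line was fitted by itself, and the interaction on all 12 libraries. Errors after ± are SE unless named SD. Each SE was derived from the F statistic. This test, which uses the spread between replicates, stands in place of the binomial test of the study's methods, whose p and fold thresholds are the looser rule. DESeq2 1.42.0 and the other settings named in the closing section were alternatives, and the procedure was tested on simulated data. Totals of 1790841 to 3656662 counts put a floor of 3 counts at up to 1.87 CPM, and this covers counting error only. The members, lists, naming rule and tests were chosen with earlier results of these data known, and the rule names all members, called genes of each list or the 4 of lowest p, and the 5 most similar genes. The sample labels give 0.7 mg/ml HME, and the paper's methods give another value. Samples of the same replicate number did not deviate together and were not paired. Some genes of the lists enter the counts and medians and are not reported here by name.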

Additional observations from a re-analysis of the deposited data

Results flagged for a closer look

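The effect of HME differed between the lines by the interaction test in ACSL3, a gene of the lipid lists that is not among the 10 members. It stood at -2.25 (effect in Ls174 minus effect in HepG2, log2 scale, edgeR adjusted p = 0.0114, from 2.49e-09 to 0.119 over its alternatives) and missed the threshold in 3 of 21 alternatives: with the replicate block, and without Ls174 HME 2 or Ls174 HME 3.

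In CYP51A1, DHCR7 and INSIG2 every HME library lay beyond every control library, in opposite directions in the 2 lines, higher in HepG2 and lower in Ls174 cells. The interaction was -1.52 for CYP51A1 (adjusted p = 0.0634), -1.72 for DHCR7, a reductase of cholesterol synthesis (0.152), and -1.69 for INSIG2 (0.146), and missed the threshold in each. Among the 10 members no gene had libraries that separated in opposite directions. Groups of 3 libraries are too small for a search for single outlying values.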

How the results depend on the processing

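Across the alternatives to TMM scaling, filtering, region choice, pooling of the fits and the set of libraries, 735 of 854 values kept their direction and their side of the threshold, 15 passed where the reported one did not, 70 no longer passed and 34 changed sign; the cause was not tested. In HepG2 cells the count of 0 members became 1 with DESeq2 (FASN), 1 with all genes of at least 1 count (FADS2), 2 in 1 fit of all 12 libraries and 2 at the looser rule, and 0 to 1 when 1 library was left out. The share of all genes that passed was 3.75% with DESeq2, 5.75% with all genes of at least 1 count and 7.58% in 1 fit. It was 0.793% to 7.74% when 1 library was left out. In Ls174 cells the count of 1 became 3 with DESeq2, 3 with all genes of at least 1 count, 0 in 1 fit of all 12 libraries and 5 at the looser rule, and 0 to 5 when 1 library was left out. There the share of all genes was 1.67% with DESeq2, 2.68% with all genes of at least 1 count and 0.945% in 1 fit. When 1 library was left out it was 0% to 8.39%. The interaction count of 0 became 1 without HepG2 control 2 and Ls174 control 1, a fit that was not planned and in which 3.25% of genes passed. The count of 4 between lines was 2 to 4 when 1 library was left out, where 17.3% to 26.2% of genes passed. Scaling by library size alone moved the median of all genes in HepG2 from -0.04 to -0.20. Like upper quartile scaling, it added ACACA and ACSS2 at the looser rule, where 2590 and 2589 of 11343 genes passed, against 2517 with TMM. The same 4 members passed that rule with TMM and only the largest region of a gene, where 2428 of 11064 genes passed. In 1 fit of all 12 libraries these and ELOVL6 passed it, where 2859 of 11343 genes did.

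With the replicate number as a block, 0 members passed in Ls174 cells, as did 0 of all genes. Between the lines 2 members passed, where 15.9% of genes did, and ACLY was at a log2 fold change of 0.052. Samples of the same number did not deviate together (r from -0.17 to 0.08 within lines and -0.42 to 0.13 between lines over 9 pairs). Of the pairs of different number, HepG2 control 2 and Ls174 control 1 reached 0.40. These correlations cannot show whether samples of the same number were cultured together, and this was not tested.

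The changes of sign were of log2 fold changes between -0.19 and 0.05. SREBF1 in HepG2 cells was at -0.17 by library size, -0.040 by upper quartile and -0.024 in 1 fit of 12, and ranged from -0.24 to 0.57 when 1 library was left out, where FADS1 ranged from -0.33 to 0.023. ACSS2 in Ls174 cells was at -0.0052 by library size and -0.40 with its largest region, and ranged from -0.13 to 0.29. In the interaction FADS2 was at -0.011 with its largest region and -0.15 without HepG2 control 2 and Ls174 control 1, and ranged from -0.20 to 0.31. ELOVL6 ranged there from -0.35 to 0.024. Between lines ACLY was at 0.18 by library size, 0.10 by upper quartile, 0.022 without the filter and 0.022 in 1 fit of 12, and ranged from -0.27 to 0.14, and ACACA was at 0.092 by library size and ranged from -0.24 to 0.040. The depth limits low members such as SREBF1 in HepG2 cells, where 3 counts equal up to 1.87 CPM.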
